A study of Mus musculus with 8 samples.

Results

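The genes described here are Star and 9 enzymes of steroid hormone production and breakdown, 10 genes of the 41591 in the count tables. They were chosen by name for their place in the pathway, not by a measured difference, and all 10 passed the filter on low counts. Messenger RNA of 8 whole-ovary samples from female C57BL/6 mice was sequenced. The DKO group held 4 samples labelled as an Insr-Igf1r double knockout, the genes of the receptors for insulin and for insulin-like growth factor, and the series calls the knockout conditional. The Control group held 4 littermate samples labelled wild-type and Pgr-Cre positive, Pgr being the progesterone receptor gene that drives the Cre. At an age of about 3 weeks every mouse was superovulated with 4 IU of eCG (equine chorionic gonadotropin) and, after 48 h, with 5 IU of hCG (its human counterpart, which triggers ovulation). Ovaries were taken 12 h after hCG. The DKO labels name no Cre driver, and ovarian cells in which the driver is silent would keep their receptors.

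Ovarian steroids are built stepwise from cholesterol. Star carries cholesterol into mitochondria, Cyp11a1 cuts it to pregnenolone, and Hsd3b1 turns pregnenolone into progesterone, the hormone of the corpus luteum that forms from the follicle after ovulation. In theca cells Cyp17a1 turns progestins into androgens, which granulosa cells convert to estrogens with Cyp19a1 (aromatase) and the reductase Hsd17b1.

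Libraries held 33145056 to 39257648 counts in genes. Insr was at 112 to 148 CPM in DKO and 140.1 to 162 CPM in Control ovaries, where CPM is the usual depth-scaled count of edgeR, with TMM library factors. Igf1r was at 199.6 to 247 CPM in DKO and 196 to 263.3 CPM in Control ovaries. The ranges of both targeted genes overlapped and neither passed the test (adjusted p = 0.226 for Insr and 0.639 for Igf1r, edgeR quasi-likelihood). Counts over whole genes cannot separate a deleted exon, so they check the genotype labels weakly. The numbers in the sample titles fall into a lower run (Control 1, DKO 1 and DKO 2) and a higher run (the other 5 libraries). What these numbers stand for is not stated, and no label calls them a batch. The first principal component, with 38.3% of the variance, put the 3 libraries of the lower run on one side and the other 5 on the other. Control 1 and DKO 2 held 1147 and 724 CPM of the oviduct gene Ovgp1, against 2.51 to 23.8 CPM in the other 6 libraries.

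Of the 10 genes, Hsd3b1 alone rose in DKO ovaries at an adjusted p under 0.05 in edgeR, and in DESeq2 Cyp11a1 and Akr1cl rose as well. None fell in edgeR or in DESeq2, and neither gene with a negative change had an unadjusted p under 0.05. Over all 16870 genes tested, 1.26% passed in edgeR, with 0.759% of all genes higher and 0.498% lower in DKO. Cyp11a1 was also higher in every DKO ovary than in any Control ovary, and its adjusted p was 0.0704 in edgeR. In all, 2 of the 10 genes had a DKO group lying wholly above the Control group, as did 5.7% of all genes tested. The log2 fold change was above 0 in 8 of the 10 and below 0 in 2, with a median of 0.52, against a median of -0.02 over all genes tested. In bulk tissue, fewer cells of a type and less RNA per cell cannot be told apart.

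Other fits gave other counts of rises among the 10 genes. With DESeq2 3 rose, against 4.13% of all genes. With quality weights 5 rose, against 5.9%. With replicate numbers as a block 3 rose, against 2.14%, and with the run of title numbers as a block 3, against 1.82%. Scaling by library size alone (0.729%) and testing without a filter (0.511%) gave 2 each. Within the higher run 1 rose (0.599%), and it was Hsd17b7. With size factors of DESeq2 (0.753%), upper quartile factors (0.753%), a stricter filter (0.894%) and limma-voom (0.788%) 1 rose. Non-robust dispersions gave 0 (0.658%), as did the fit without Control 1 and DKO 2 (0.291%). Without Control 3 the count was 3 (1.98%). It was 0 without Control 1 (0.702%), Control 2 (0.00583%), Control 4 (0.105%), DKO 1 (0.332%), DKO 2 (0.269%), DKO 3 (0.0467%) or DKO 4 (0.337%).

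The promoters of Hsd3b1, Cyp11a1 and Akr1cl are shown because the profiles of these 3 genes over the 8 libraries lay closest together among the 10. Each runs from 250 bases before to 50 bases after a RefSeq transcript start in GRCm38.p6, and capitals mark the CCAAT box (CCAAT or its reverse complement ATTGG), the letters bound by the factor NF-Y. Hsd3b1 is on the minus strand at chr3:98859745-98860044, Cyp11a1 on the plus strand at chr9:57997774-57998073 and Akr1cl on the minus strand at chr1:65032710-65033009.
Hsd3b1: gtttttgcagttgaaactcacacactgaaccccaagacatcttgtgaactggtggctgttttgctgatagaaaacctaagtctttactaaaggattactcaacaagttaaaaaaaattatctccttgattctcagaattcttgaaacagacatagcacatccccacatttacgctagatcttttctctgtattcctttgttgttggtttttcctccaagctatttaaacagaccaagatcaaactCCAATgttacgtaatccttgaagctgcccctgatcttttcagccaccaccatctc
Cyp11a1: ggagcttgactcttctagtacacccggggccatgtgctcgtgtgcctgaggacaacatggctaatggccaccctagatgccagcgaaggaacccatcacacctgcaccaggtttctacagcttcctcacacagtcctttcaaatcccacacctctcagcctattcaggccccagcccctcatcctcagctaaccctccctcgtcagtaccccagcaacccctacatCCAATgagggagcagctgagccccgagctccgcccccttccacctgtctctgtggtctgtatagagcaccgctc
Akr1cl: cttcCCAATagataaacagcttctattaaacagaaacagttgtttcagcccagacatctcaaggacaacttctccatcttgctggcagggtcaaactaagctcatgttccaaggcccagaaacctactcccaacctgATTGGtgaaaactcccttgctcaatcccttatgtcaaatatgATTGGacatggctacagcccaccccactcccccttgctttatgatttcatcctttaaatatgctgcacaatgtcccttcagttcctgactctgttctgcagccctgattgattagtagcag
The Hsd3b1 and Cyp11a1 windows held 1 CCAAT box each and the Akr1cl window 3. On either strand, 37.4% of all 32851 RefSeq promoter windows held these letters, as did 6 of the 10 windows of the 7 genes that matched by symbol. The GATA letters AGATAA were in the windows of Hsd3b1 and Akr1cl (2 of 10, against 11.2% of all windows), and the half-site TGACG of cAMP-responsive elements was in those of Cyp11a1 and Hsd17b7 (2 of 10, against 20.8%). The nuclear receptor half-site AGGTCA, the core of the letters read by the steroidogenic factors Nr5a1 and Nr5a2, was in 3 of the 10 windows (Cyp19a1, Akr1c18 and a downstream start of Cyp11a1), against 16.3% of all. TATAAA was in 2 windows, both of Cyp19a1, against 13.6% of all. The motif TGACG and the reverse complement of AGGTCA share their first letters, TGAC, and a match is no evidence of binding.

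Levels between genes were compared per length, as RPKM, the CPM divided by the exon length in kilobases. Genes of progesterone production were the most abundant. Cyp11a1 averaged 2596 ± 157 RPKM in DKO and 1491 ± 419 RPKM in Control ovaries, and Hsd3b1 averaged 2497 ± 299 RPKM in DKO and 1326 ± 323 RPKM in Control ovaries (mean ± SD, n = 4 each, as for all means in this text). Akr1cl followed at 1336 ± 160.1 RPKM in DKO and 931 ± 159.6 RPKM in Control ovaries, and Star at 523 ± 356 RPKM in DKO and 526 ± 182 RPKM in Control ovaries. Cyp11a1 and Hsd3b1 overlapped in both groups, so their order is within their spread. In Control ovaries a gap separated these 4 from the rest, with Star at 254 RPKM or more in every Control library and the other 6 genes at 78.3 RPKM or less.

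Among the less abundant genes, Hsd17b1 stood at 60.1 ± 14.2 RPKM in Control ovaries, followed by Akr1c18 at 42.0 ± 29.4, Hsd17b7 at 38.8 ± 20.4, Cyp17a1 at 15.5 ± 8.11, Srd5a1 at 7.74 ± 1.67 and Cyp19a1 at 4.16 ± 2.60 RPKM. The ranges of neighbours in this order overlapped. In DKO ovaries Hsd17b7 came next after Star, at 144 ± 82.6 RPKM, above Hsd17b1 at 64.7 ± 23.1 and Cyp17a1 at 46.7 ± 49.0 RPKM. Akr1c18 at 24.4 ± 14.3, Srd5a1 at 11.1 ± 2.25 and Cyp19a1 at 5.57 ± 2.63 RPKM followed. The 10 genes together took 1.59% to 2.11% of all gene counts in DKO libraries and 0.879% to 1.43% in Control libraries, and these ranges did not overlap. Cyp11a1 alone made up 41.15% to 47.8% of these counts in DKO and 37.1% to 45.2% in Control libraries. The sum therefore mostly follows the abundant genes.

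**Figure D1:**
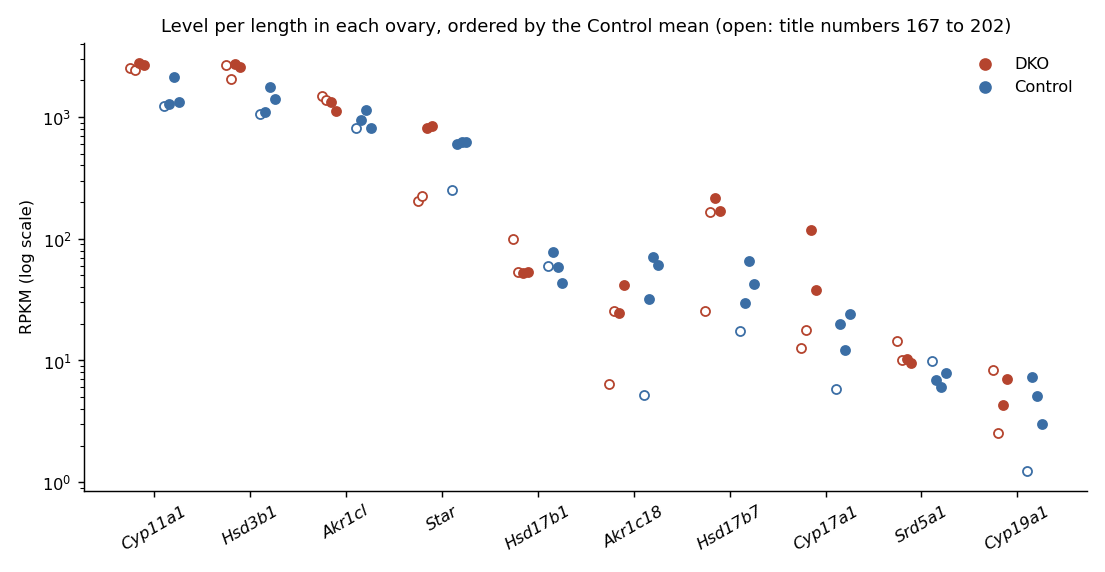
Level per length (RPKM, log scale) of the 10 genes in each ovary, DKO left of Control, with genes ordered by the Control mean and open points for the lower run of title numbers. Cyp11a1, Hsd3b1, Akr1cl and Star lie above the other 6 genes in the Control ovaries.

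The first question was whether cholesterol delivery by Star differed in DKO ovaries. Star has gene ID 20845 and lies on chromosome 8 at 25808513 to 25815982, in the authors' build GRCm38.p5 as are all gene positions here. Its level was 821, 907, 3267 and 3396 CPM in DKO ovaries 1 to 4. In Control ovaries 1 to 4 it was at 1016, 2395, 2521 and 2497 CPM. Each group held both low and high ovaries, so the means nearly met, at 2098 ± 1426 CPM in DKO and 2107 ± 729 CPM in Control. The log2 fold change was -0.01 ± 0.52 (SE; adjusted p = 0.997), and the 95% interval of the fold, 0.435 to 2.28, includes both a decrease and an increase of more than 2-fold.

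The low Star values were those of the lower run of title numbers. DKO 1, DKO 2 and Control 1 lay between 821 and 1016 CPM, and the other 5 libraries between 2395 and 3396 CPM. Within the higher run both DKO ovaries lay above all 3 Control ovaries, at a mean of 3331 CPM against 2471 CPM, with a log2 fold change of 0.45 and an adjusted p of 0.299. Within the lower run both DKO ovaries (821 and 907 CPM) lay below the 1 Control ovary (1016 CPM). With the run as a block in the model the log2 fold change was 0.19 (adjusted p = 0.549).

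Oocyte markers split between the runs as Star did, but their order within the higher run differed from that of Star. There DKO 4 had the highest Star value (3396 CPM) and the lowest summed level of oocyte markers (215 CPM). Control 2 had the lowest Star value (2395 CPM) and the highest summed level (363 CPM). All 6 of 6 (Zp1, Zp2, Zp3, Gdf9, Bmp15 and Oosp1) were lower in each of the 3 libraries of the lower run than in any of the other 5. Their summed level was 107 to 352 CPM in DKO and 95.8 to 363 CPM in Control ovaries, and it was 107, 125 and 95.8 CPM in DKO 1, DKO 2 and Control 1. None of the 6 was at 0, and their part in the Star values was not tested. Among the 10 genes Star alone had ranges that did not overlap between the runs. The share of all genes that split between the runs in this way was not worked out. The counts of oocyte markers and of the 10 genes therefore cannot be set against it, and the first principal component split the libraries likewise. The genes with the most similar profiles over the 8 libraries were Ahsg and Ggct, with root mean square differences of 0.25 each on the log2 scale, among 11581 genes compared.

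**Figure D2:**
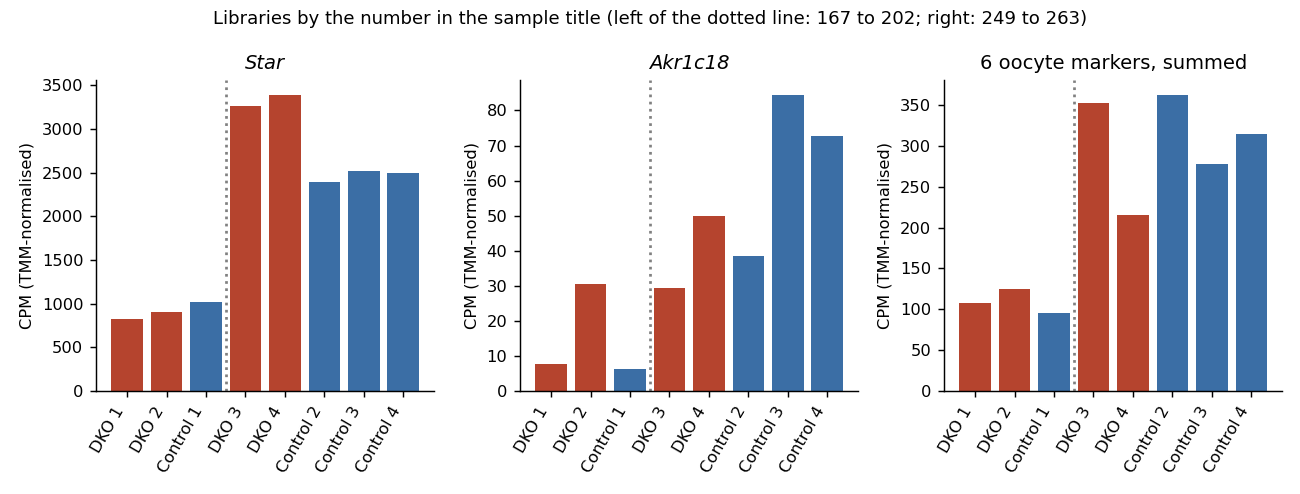
CPM of Star, Akr1c18 and 6 summed oocyte markers in each library, with the lower run of title numbers left of the dotted line and the higher run right of it. Star is at 821 to 1016 CPM on the left and 2395 to 3396 CPM on the right.

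The side-chain cleavage enzyme gene Cyp11a1 (gene ID 13070, chromosome 9, 57998029 to 58027023) makes the first steroid of the pathway. It was at 7667, 7434, 8492 and 8171 CPM in DKO ovaries 1 to 4, and at 3759, 3945, 6472 and 4067 CPM in Control ovaries 1 to 4. Every DKO ovary was above every Control ovary, and Control 3 stood nearest to the DKO group. The means were 7941 ± 479 CPM in DKO and 4560.5 ± 1280.5 CPM in Control, a log2 fold change of 0.80 ± 0.18 (adjusted p = 0.0704). The interval of the fold was 1.31 to 2.31. It passed with DESeq2 (5.36e-04), quality weights (0.00223), the replicate block (0.0265), the run of title numbers as a block (0.0378), library size only (0.0488), no filter (0.0469) and without Control 3 (0.00557). Within the higher run alone the log2 fold change was 0.81 (0.229).

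Hsd3b1 (gene ID 15492, chromosome 3, 98842355 to 98859794), the dehydrogenase and isomerase that yields progesterone, showed the same order. It was at 5338, 4119.8, 5411 and 5129.8 CPM in DKO ovaries 1 to 4, and at 2125, 2192, 3514 and 2792 CPM in Control ovaries 1 to 4. The lowest DKO ovary was above the highest Control ovary, again Control 3. The mean rose to 4999.6 ± 599 CPM in DKO, against 2656 ± 646 CPM in Control, 1.88-fold with an interval of 1.42 to 2.49 (log2 fold change 0.91 ± 0.18, adjusted p = 0.0478). Over all genes 212 were called with every library, and 2 to 506 when 1 library was left out. The Hsd3b1 call was near the threshold and ended in most fits without 1 library. It held without Control 3 (adjusted p = 0.0135) and ended without any 1 of the other 7 libraries (0.0611 to 0.185), within the higher run of title numbers (0.130), without Control 1 and DKO 2 together (0.0751) and with non-robust dispersions (0.0532), while the log2 fold change stayed between 0.83 and 1.08 in the 8 fits without 1 library.

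The ratio of Hsd3b1 to Cyp11a1, per length, was 1.06, 0.847, 0.974 and 0.959 in DKO ovaries 1 to 4 and 0.864, 0.849, 0.830 and 1.05 in Control ovaries 1 to 4, and the groups overlapped. The ratio of Star to Cyp11a1 was 0.0817, 0.0931, 0.294 and 0.317 in DKO ovaries and 0.206, 0.463, 0.297 and 0.469 in Control ovaries, and here too the groups overlapped. Within the lower run both DKO ratios were below that of Control 1, and within the higher run 1 DKO ratio was above that of Control 3 and both were below those of Control 2 and Control 4. Profiles over the 8 libraries were nearest to Cyp11a1 in Nr0b2, a nuclear receptor without a DNA-binding domain, and Nrarp, a regulator of Notch signalling (root mean square differences of 0.050 and 0.064 on the log2 scale). Nr0b2 and then Cyp11a1 were nearest to Hsd3b1 (0.13 and 0.14).

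The summed level of luteal cell markers differed between the groups in the same direction as Cyp11a1 and Hsd3b1. The summed level of 4 such markers (Lhcgr, Ptgfr, Prlr and Parm1) was 1574 to 2155 CPM in DKO and 922 to 1225 CPM in Control ovaries, without overlap. Within the groups the order differed. The luteal sum was highest in DKO 2, which had the lowest Cyp11a1 and Hsd3b1 values of the DKO ovaries. Among Control ovaries the sum was highest in Control 4, and Cyp11a1 and Hsd3b1 were highest in Control 3. Lhcgr and Prlr also stand among the regulators below. Of the 4, 1 rose (Ptgfr, adjusted p = 0.0173), 3 lay wholly higher in DKO and Parm1 wholly lower, and none was at 0. Over all genes tested 5.7% lay wholly higher and 3.54% wholly lower. The Ptgfr call ended with the replicate block (0.0534) and without Control 2 (0.0685), Control 4 (0.0800) or DKO 3 (0.0579). Summed levels of granulosa markers (2824 to 3471 CPM in DKO, 2389.9 to 3239.8 CPM in Control) and of theca and interstitial markers (298 to 640.3 CPM in DKO, 529 to 912 CPM in Control) overlapped. The theca and interstitial sum includes Cyp17a1, itself 1 of the 10 genes and at 218 CPM in DKO 3. Only DKO 3 lay inside the Control range of that sum, and the other DKO ovaries (298 to 501 CPM) lay below it. Of the 5 theca and interstitial markers, 1 lay wholly lower in DKO and 0 wholly higher. It was Aldh1a1, at 143 to 324 CPM in DKO and 401 to 734 CPM in Control. The part of these markers in the rise of Hsd3b1 was not tested.

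**Figure D3:**
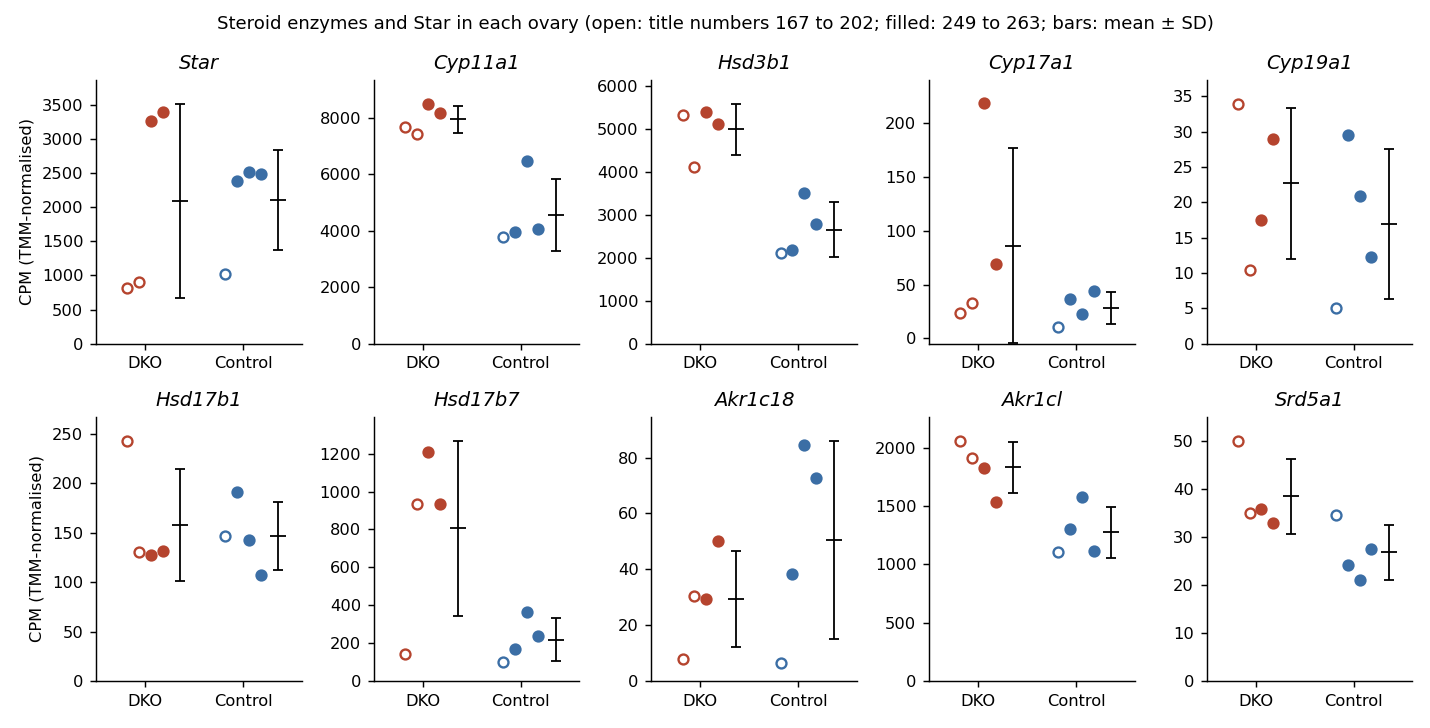
CPM of each gene in the 4 DKO and 4 Control ovaries, with open points for the lower run of title numbers, filled points for the higher run, and the mean ± SD of each group beside its points. Only Cyp11a1 and Hsd3b1 have DKO ovaries wholly above the Control ovaries; Star splits by the title numbers in both groups.

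The androgen and estrogen genes had lower levels and wide spreads. Cyp17a1 (gene ID 13074, chromosome 19, 46667165 to 46673000), the hydroxylase and lyase of androgen production, was at 23.5, 33.01, 218 and 69.2 CPM in DKO ovaries 1 to 4, and at 10.6, 36.4, 22.6 and 44.4 CPM in Control ovaries 1 to 4. The groups overlapped, with DKO 3 far above all other ovaries and a 20.5-fold range over the 8 libraries, the widest of the 10 genes. Its log2 fold change was 1.59 ± 0.75 (adjusted p = 0.365), and 0.57 without DKO 3 (0.722). With the run of title numbers as a block it was 1.83 (adjusted p = 0.0370). The other 4 theca and interstitial markers in DKO 3 were at 0.343 CPM for Insl3, 82.2 CPM for Ptch1, 15.2 CPM for Gli1 and 324 CPM for Aldh1a1. The other 7 libraries held 0.236 to 0.775, 82.6 to 142, 8.83 to 14.8 and 143 to 734 CPM of these genes in the same order, so DKO 3 was high in Gli1 by a small margin, lowest in Ptch1 and within the range of the others for Insl3 and Aldh1a1.

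Aromatase, Cyp19a1 (gene ID 13075, chromosome 9, 54165859 to 54229532), was the rarest of the 10 genes per length. It was at 34.0, 10.4, 17.5 and 29.0 CPM in DKO ovaries 1 to 4, and at 5.08, 29.6, 20.9 and 12.3 CPM in Control ovaries 1 to 4. The groups interleaved. The lowest value rested on 189 reads in Control 1, so counting error is small beside the spread between ovaries. Its log2 fold change was 0.42 ± 0.54 (adjusted p = 0.776), with a fold interval of 0.572 to 3.13.

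Hsd17b1 (gene ID 15485, chromosome 11, 101077968 to 101081188), which makes estradiol from estrone in granulosa cells, was at 243, 131, 127 and 131 CPM in DKO ovaries 1 to 4, and at 147, 191, 142 and 107 CPM in Control ovaries 1 to 4. Apart from DKO 1, the DKO ovaries lay within the Control range. DKO over Control, the log2 fold change was 0.11 ± 0.24 (adjusted p = 0.88) with a fold interval of 0.739 to 1.57, and -0.18 without DKO 1 (0.825).

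Hsd17b7 (gene ID 15490, chromosome 1, 169949535 to 169969240) can make estradiol in the rodent corpus luteum and also serves as a ketoreductase of cholesterol synthesis. It had the largest log2 fold change of the 10 genes. Its values were 141, 933, 1211 and 935 CPM in DKO ovaries 1 to 4, and 97.8, 166, 364 and 238 CPM in Control ovaries 1 to 4. DKO 2, 3 and 4 were above all Control ovaries by a wide margin, and DKO 1 lay inside the Control range. The log2 fold change was 1.89 ± 0.64 (adjusted p = 0.201), with a fold interval of 1.34 to 10.3. Without DKO 1 it was 2.24 (adjusted p = 0.0677). Within the higher run of title numbers alone it was 2.09 and passed (0.0266). It also passed with limma-voom and sample quality weights (0.0369).

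The ratio of Hsd17b7 to Hsd17b1, per length, set DKO 1 apart from the other DKO ovaries. It was 0.255, 3.12, 4.17 and 3.11 in DKO ovaries 1 to 4, and 0.292, 0.381, 1.12 and 0.974 in Control ovaries 1 to 4. DKO 1 had the highest Hsd17b1, Cyp19a1, Akr1cl and Srd5a1 values of its group and the lowest Star, Cyp17a1, Hsd17b7 and Akr1c18 values. The profile most like that of Hsd17b7 was that of the scaffold gene Homer2 (root mean square difference 0.41 on the log2 scale), which stood at 3.55 CPM in DKO 1, 17.7 to 24.1 CPM in DKO 2 to 4 and 3.46 to 6.60 CPM in Control ovaries.

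**Figure D4:**
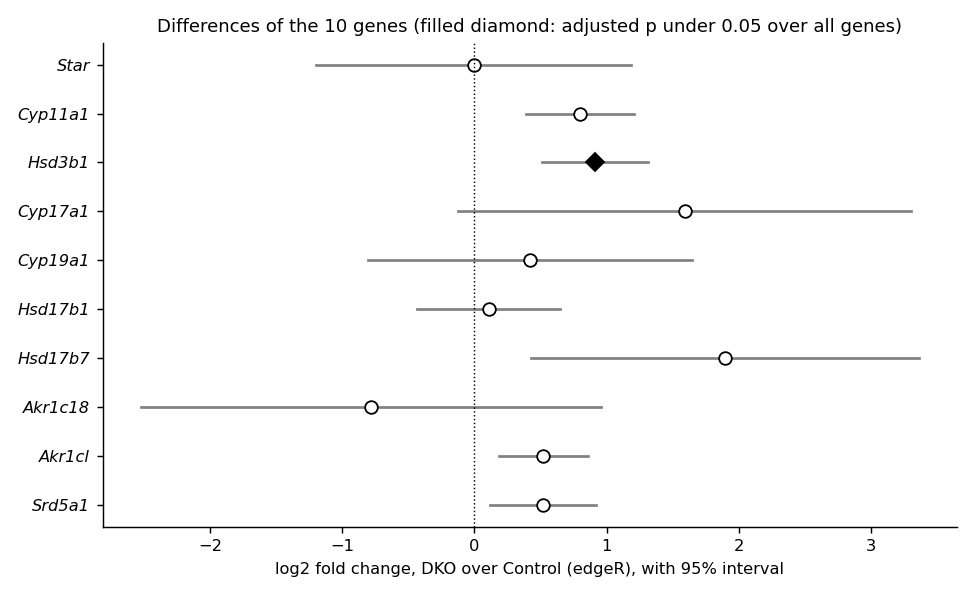
Log2 fold change of DKO over Control with its 95% interval for each gene, from the edgeR fit over all genes. The interval of Hsd17b7 is wide and lies above 0, that of Star spans 0 widely, and the filled diamond of Hsd3b1 is the 1 gene called.

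Genes of steroid breakdown came last. Akr1c18 (gene ID 105349, chromosome 13, 4132615 to 4150651) inactivates progesterone and in rodents rises at the end of the life of the corpus luteum. It was at 7.77, 30.4, 29.4 and 49.9 CPM in DKO ovaries 1 to 4, and at 6.31, 38.4, 84.5 and 72.8 CPM in Control ovaries 1 to 4. The groups overlapped, and DKO 1 and Control 1, both of the lower run of title numbers, were the lowest. On the log2 scale the change was -0.78 ± 0.76 (adjusted p = 0.692), -1.13 without Control 1 (0.328), and -0.02 with the run as a block (0.994). The ratio of Akr1c18 to Hsd3b1, per length, was 0.00242, 0.0123, 0.00905 and 0.0162 in DKO ovaries 1 to 4 and 0.00494, 0.0291, 0.0400 and 0.0434 in Control ovaries 1 to 4. All Control ratios but that of Control 1 were above every DKO ratio. Hsd3b1, the divisor, was itself higher in every DKO ovary than in any Control ovary. The ratio is therefore no separate result on Akr1c18.

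Akr1cl (gene ID 70861, chromosome 1, 65013078 to 65032759), an aldo-keto reductase gene, was far more abundant than Akr1c18. It was at 2059, 1910.1, 1828 and 1537 CPM in DKO ovaries 1 to 4, and at 1109, 1302, 1577 and 1118 CPM in Control ovaries 1 to 4. DKO 4 lay just below Control 3, and apart from that pair all DKO ovaries were higher. Its log2 fold change was 0.52 ± 0.15 (adjusted p = 0.131), and 0.64 without Control 3 (0.0416). It also passed with DESeq2 (0.0112) and with quality weights (0.0205). Its profile was nearest to those of the DNA repair gene Mgmt and the urea cycle gene Asl (0.050 and 0.066 on the log2 scale).

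Srd5a1 (gene ID 78925, chromosome 13, 69573449 to 69611907), the reductase that makes dihydrotestosterone and also acts on progesterone, was at 49.98, 35.0, 35.9 and 32.9 CPM in DKO ovaries 1 to 4. In Control ovaries 1 to 4 it was at 34.5, 24.2, 21.0 and 27.5 CPM. DKO 4 fell just below Control 1, the highest Control ovary. The log2 fold change was 0.52 ± 0.18 (adjusted p = 0.195), and within the higher run of title numbers it was 0.53 (0.217). It passed with the replicate block (0.0406) and with quality weights (0.0365).

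Single Control libraries shaped the group ranges. Control 1 was the lowest Control ovary for 8 of the 10 genes, and Control 3 was the highest for 6. Neutrophil markers S100a8, S100a9 and Csf3r were also highest in Control 3 (summed level 21.4 CPM, against 3.28 to 9.39 CPM in the other Control ovaries and 2.08 to 3.46 CPM in DKO ovaries). None was at 0, and their part in the Control 3 values was not tested. Control 1 was the 1 Control library of the lower run of title numbers. Its summed level of the oviduct markers Ovgp1, Foxj1 and Pax8 was 1191 CPM. The other Control ovaries held 4.76 to 28.1 CPM of them and the DKO ovaries 3.75 to 763 CPM. The part of the run or of the oviduct markers in the Control 1 values was not tested.

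The other genes of the pathway were taken from 6 lists with 76 genes, of which 66 could be tested. Of these 66, 1 rose in DKO (Akr1b7), 1 fell (Hsd11b1), 35 had a log2 fold change above 0 and 31 below, and the median was 0.03. Over all genes tested 0.759% rose and 0.498% fell, so 1 of 66 in each direction is near those shares. Akr1b7, an aldo-keto reductase abundant in steroid-producing tissue of the mouse, was at 1113, 917, 739.8 and 787 CPM in DKO ovaries 1 to 4 and 595, 470.0, 376 and 449.9 CPM in Control ovaries 1 to 4 (0.91 ± 0.17 on the log2 scale, adjusted p = 0.0429). Hsd11b1, which reactivates glucocorticoids, was at 2.51, 3.21, 3.40 and 2.98 CPM in DKO ovaries and 5.86, 6.50, 7.64 and 7.41 CPM in Control ovaries (-1.18 ± 0.19, adjusted p = 0.0288). Neither pair of groups overlapped. Without 1 library both calls ended in 6 of 8 fits, those without Control 2, Control 4 or any 1 DKO library, and without Control 1 and DKO 2 together both had an adjusted p of 0.0519. Both calls also ended within the higher run of title numbers (0.0603 for Akr1b7 and 0.0705 for Hsd11b1), where Hsd17b11 was the 1 gene of the 66 called lower, and that of Akr1b7 ended with library size only (0.0527).

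Supply, electron donors, regulators and receptors gave no call in edgeR, although 4 genes of supply, 1 electron donor, 5 regulators and 1 receptor had an unadjusted p under 0.05, as did 15.4% of all genes tested. DESeq2 called Scarb1, Lipe, Foxl2, Lhcgr and Nr0b2 higher and Pgr lower. In cholesterol supply, 8 of 10 genes were above 0 (median 0.14), and Scarb1, the receptor that takes up cholesterol from high-density lipoprotein, was at 2104, 2031, 3296 and 2992 CPM in DKO ovaries 1 to 4 and 912, 1235, 1778 and 1267 CPM in Control ovaries 1 to 4 (1.01 ± 0.23, adjusted p = 0.0686). All DKO ovaries were above all Control ovaries for Scarb1. Of the 6 electron donors, 3 were above 0 (median -0.01), with the smallest adjusted p for Fdxr, the reductase that feeds Cyp11a1 with electrons (543 ± 34.6 CPM in DKO and 359 ± 135 CPM in Control, 0.60 ± 0.22, adjusted p = 0.219). Among 19 regulators 8 were above 0 (median -0.02), and Foxl2, a granulosa transcription factor, had the smallest adjusted p (190.0 ± 23.2 CPM in DKO and 127 ± 19.3 CPM in Control, 0.58 ± 0.13, 0.0716). Of 8 steroid receptors 4 were above 0 (median 0.04), and Pgr had the smallest adjusted p (1.61 ± 0.537 CPM in DKO and 4.86 ± 1.75 CPM in Control, -1.59 ± 0.36, 0.0665).

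**Figure D5:**
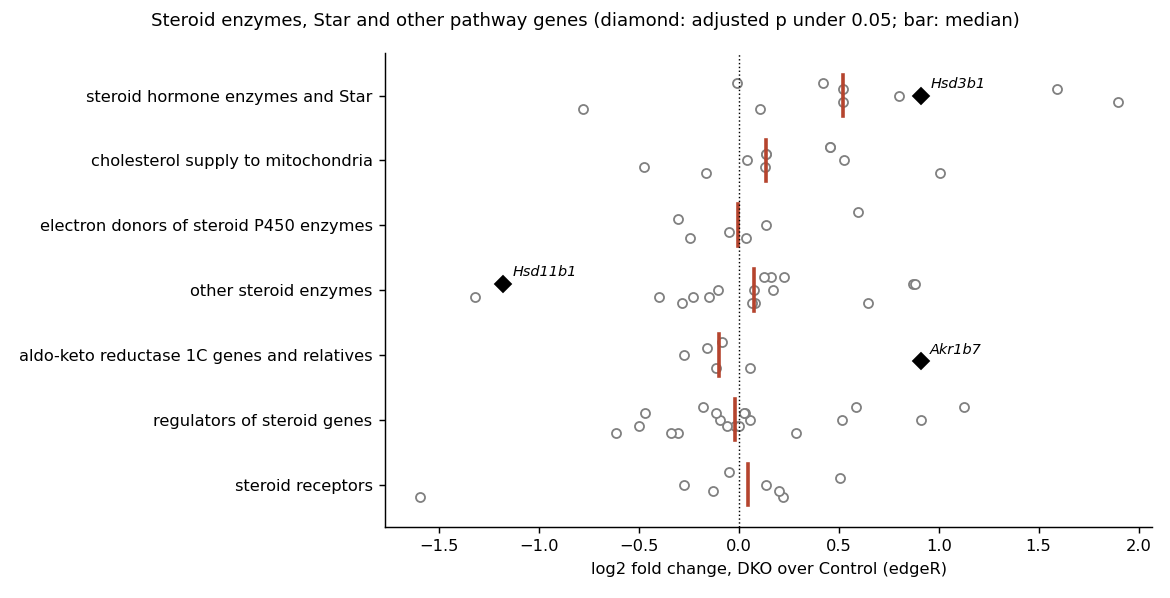
Log2 fold change of DKO over Control for the 10 genes (top row) and 6 lists of other steroid pathway genes, with diamonds for genes at an adjusted p under 0.05 and bars for list medians. The medians of the 6 other lists lie between -0.10 and 0.14, and that of the 10 genes at 0.52.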

How the data were processed

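RNA was extracted from whole ovaries, and sequencing libraries came from a strand-specific messenger RNA kit, per the labels' protocols. Raw counts per gene, as deposited for each library, are the output of featureCounts (Subread 1.5.2), per the file headers, on exons, with the setting for reverse-stranded reads, on the RefSeq annotation of GRCm38.p5. The submitters' processing notes also name Trimmomatic 0.36 and 0.33, STAR 2.4.2a and edgeR 3.12.0. No option for reads matching several places is recorded, so near-identical copies, as in the Hsd3b and Akr1c families, are uncertain. RPKM was computed here from CPM and the deposited exon lengths. No exon base of the 10 genes is shared with another gene on the same strand.

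Symbols came from a RefSeq table of GRCm38.p6, matched by gene ID for 40290 of 41591 IDs (96.9%), and gene coordinates from the count tables. Promoters are RefSeq sequences of GRCm38.p6. The sample descriptions gave the groups and replicate numbers. Replicate libraries differed beyond sampling noise (reduced chi-square 22.9 to 129 over genes with at least 10 counts), and all 8 were used. P-values measure the spread between these libraries, since the labels do not say which mouse each came from.

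Tables were prepared in Python 3.11.15 and tested in R 4.3.3 with edgeR 4.0.16, DESeq2 1.42.0 and limma 3.58.1. Genes were kept with filterByExpr (16870), libraries were scaled by TMM factors (0.943 to 1.06), and groups were compared with edgeR's quasi-likelihood test, robust, two-sided, with Benjamini-Hochberg adjustment over all genes tested and a threshold of 0.05. The SE is the log2 fold change divided by the square root of F. Profile likeness is the root mean square difference of centred log2(CPM + 0.5) among genes averaging 5 CPM or more. The scripts were tested on simulated data. Alternatives changed scaling, filter, tool, blocks and libraries.

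The genes, lists and alternatives were chosen with earlier results of these data known. All 10 genes are named whatever their result. Of each list of other pathway genes up to 4 called genes are named or, where none was called, that with the smallest adjusted p. The 2 nearest profiles are given for Star, Cyp11a1, Hsd3b1 and Akr1cl, and the nearest for Hsd17b7. Luteal, oocyte, neutrophil, oviduct, adrenal, and theca and interstitial markers are named as whole lists. Markers of endothelial cells, macrophages and fat are not described above. Among those of fat, Plin1 was called higher in edgeR (log2 fold change 1.25, adjusted p = 0.0277), and 2 of the 3 tested were below 0. Other genes named were chosen after their values were seen.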

Additional observations from a re-analysis of the deposited data

Results flagged for a closer look

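For each of the 10 genes the highest and lowest library of each group of 4 was compared with its neighbour, as the share of the group's whole range that the gap takes. Of the 20 groups, 3 had a library standing apart past Dixon's critical value for 4 samples at 95%, where chance flags about 1 in 20. Hsd17b1 was highest in DKO 1, with a gap of 0.963 of the DKO range (243 CPM, against 127 to 131 CPM in the other DKO ovaries). Star was lowest in Control 1, with a gap of 0.916 of the Control range (1016 CPM, against 2395 to 2521 CPM in the other Control ovaries). Cyp11a1 was highest in Control 3, with a gap of 0.886 of the Control range (6472 CPM, against 3759 to 4067 CPM in the other Control ovaries).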

How the results depend on the processing

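Calls depended on the fit. Of the 10 genes, edgeR with all libraries called 1 higher and 0 lower. The count higher was 2 with library size only and with no filter, 3 with DESeq2, 5 with limma-voom and sample quality weights, 0 with non-robust dispersions, 3 with the replicate block, 3 with a block for the run of title numbers, and 0 without Control 1 and DKO 2 (a choice made after seeing the data). It ran from 0 to 3 when 1 library was left out. Same-numbered libraries deviated together in some pairs and oppositely in others (correlation -0.36 to 0.47), so the replicate block rests on a number alone.

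Of the other pathway genes, 1 was called higher and 1 lower. The counts higher, with the share of all genes higher in brackets, were 0 with library size only (0.729%) and 2 with no filter (0.511%). They were 6 with DESeq2 (4.13%), 10 with quality weights (5.9%), 7 with the replicate block (2.14%) and 4 with the block for the run (1.82%). They were 0 within the higher run of title numbers (0.599%) and 0 without Control 1 and DKO 2 (0.291%). Without 1 library they were 0 to 7 (0.00583% to 1.98%). The counts lower were 2 with no filter, 3 with DESeq2, 4 with quality weights, 5 with the replicate block, 3 with the block for the run, 0 without Control 1 and DKO 2, and 0 to 2 without 1 library. The share of all genes lower was worked out for the main fit alone (0.498%). These counts lower therefore cannot be set against the share in their own fit. Over all genes 212 were called, against 1107 with DESeq2, 1651 with quality weights, 743 with the replicate block, 526 with the block for the run and 97 without Control 1 and DKO 2, and 2 to 506 without 1 library.

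Star, at -0.01 on the log2 scale, was above 0 with library size only (0.011), with no filter (0.018), within the higher run of title numbers (0.45), with the block for the run (0.19) and without Control 1 and DKO 2 (0.030), and it ran from -0.34 to 0.26 without 1 library. Hsd17b1 was below 0 with quality weights (-0.21) and within the higher run of title numbers (-0.17), and ran from -0.18 to 0.26 without 1 library. Cyp19a1 was below 0 with quality weights (-0.10). The other 7 genes kept their direction in all 21 alternatives. Ranked by CPM without length, 5 of the 10 genes changed place in Control ovaries. The causes were not tested.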

Other observations

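Cyp11b1, an enzyme gene best known from the adrenal cortex, was present in every ovary. It was at 169, 121, 114 and 134 CPM in DKO ovaries 1 to 4, and at 101, 73.1, 55.9 and 113 CPM in Control ovaries 1 to 4. Every DKO ovary was above every Control ovary, by a narrow margin, and the gene did not pass the edgeR test (0.65 ± 0.22 on the log2 scale, adjusted p = 0.184). Of the 4 adrenal markers listed, Cyp21a1, a defining one, had 0 counts in all 8 libraries, and Cyp11b2 and the corticotropin receptor gene Mc2r were at most at 0.33 and 1.04 CPM. Hsd17b8, of the other steroid enzymes, was likewise at 0 CPM in all 8 libraries. How reads matching several places were counted is not recorded, so a 0 here is no measure of absent RNA or tissue.

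Near relatives of the enzymes were compared with them in CPM, not per length. Hsd3b6 was at 0.854 to 2.04 CPM in DKO and 1.95 to 2.38 CPM in Control ovaries, far below the CPM of Hsd3b1. Akr1c14 was at 250.4 to 335 CPM in DKO and 249.1 to 369 CPM in Control ovaries, above the CPM of Akr1c18 in every library. Its log2 fold change was -0.09 ± 0.15 (adjusted p = 0.839). Hsd17b11, a dehydrogenase found on lipid droplets, was at 75.8 to 161 CPM in DKO and 166 to 346 CPM in Control ovaries, without overlap (-1.32 ± 0.31, adjusted p = 0.0846). It was called lower with DESeq2, quality weights, the replicate block, the block for the run of title numbers, without Control 1 and within the higher run.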
